A study of Homo sapiens with 36 samples.

Results

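The regions described here are m6A peaks that the authors listed as changed by RBM33 shRNA and that share sequence with a peak listed as changed by ALKBH5 shRNA. A row of the RBM33 tables was a member if at least 1 of its blocks overlapped, by at least 1 base on the same chromosome and strand, a block of any row of the ALKBH5 tables. The rule took 1695 of 5338 RBM33 rows, out of 37709 rows in the 4 effect tables. The members are 720 of 2070 rows for RBM33 shRNA-1 (34.8%) and 975 of 3268 rows for RBM33 shRNA-2 (29.8%). From the other side they overlap 1693 of 32371 ALKBH5 rows (5.23%). Each table holds only peaks past the authors' own thresholds, so the members were chosen by the listed effects and p-values of both targets, which are given below as a description, without a test.

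N6-methyladenosine (m6A) is a methyl mark that the METTL3-METTL14 complex writes on adenosines of nuclear RNA, mostly within the consensus called DRACH, and often near stop codons and in long internal exons. ALKBH5 is a nuclear demethylase that removes the mark, and reader proteins of the YTH family tie it to the splicing, export, translation and decay of an RNA. RBM33 binds RNA and has been reported as a partner of ALKBH5. A peak called higher here was more enriched in the m6A-seq libraries of an shRNA than in those of its scramble, by the effect the authors deposited.

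The cells were UM-SCC-1, an established head and neck squamous cell carcinoma line, infected with retrovirus carrying ALKBH5 shRNA-1, ALKBH5 shRNA-2, RBM33 shRNA-1, RBM33 shRNA-2 or a scramble shRNA. All groups, both scramble groups included, went through 4 days of selection in blasticidin at 10 ug/mL. The labels give 36 samples, an RNA-seq input group and an m6A-seq group of 3 for each shRNA and each scramble, and the ALKBH5 and RBM33 sets have separate scrambles. The design text names siRNA and the titles shRNA, and the titles are followed. The labels do not say that replicates were separate cultures, so a p-value here measures the spread between libraries, and that spread may be technical.

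For RNA, 15 of 18 input libraries had a column and were used: 2 ALKBH5 shRNA-1, 2 ALKBH5 shRNA-2, 2 RBM33 shRNA-1, 3 RBM33 shRNA-2 and 3 of each scramble, with 4493849 to 6733017 reads in 21797 listed genes. The ALKBH5 transcript fell by 0.53 on the log2 scale with ALKBH5 shRNA (SE 0.08, limma adjusted p = 9.11e-05). The RBM33 transcript was at 191 to 214 CPM (reads scaled to a common library size) in the 5 libraries labelled RBM33 shRNA, against 207 to 227 CPM in their 3 scramble libraries. That difference of -0.10 on the log2 scale (SE 0.06) missed the threshold (limma adjusted p = 0.272), and with a trend with gene length removed RBM33 fell by 0.20 (limma adjusted p = 0.030). Of 26 alternatives that was the 1 that passed, and the change was -0.06 after centring each library on its median and -0.10 with edgeR. A fall of the RBM33 transcript is thus not established here, and the libraries are called by their label. Of 10 squamous epithelial markers, 5 were not listed in the RNA table (KRT5, KRT14, KRT6A, KRT17 and TP63) and 1 was above 10 CPM (ITGA6, median 20.3 CPM). The 5 listed markers summed to a median of 25.4 CPM and the 6 fibroblast markers to 35.2 CPM, of which COL1A1 gave 20.8 CPM. The line label was therefore not matched by squamous keratins in these libraries. In bulk RNA, fewer cells of a type and less RNA per cell cannot be told apart.

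Sequence was available for the few shared peaks that lie at a gene start. Of 1362 loci, made by joining members that overlap each other, 31 had bases in one of 35116 RefSeq windows (GRCh38.p14) around gene starts. The 5 printed here are the strongest of those in 3 or 4 tables, 30 bases each, read on the strand of the peak. Capitals mark the first 4-base core of the DRACH consensus, which is any run that ends in AC with A or G as its second base and A, G or T as its first, and a lower-case run has none.
PGK1, chrX:78104243-78104272, plus strand: gcggtgttccgcattctgcaagcctccgga
SRA1, chr5:140558054-140558083, minus strand: gctgggcactgggaatgtaataaaatagtc
FAM53C, chr5:138338017-138338046, plus strand: tttctgcgatattttggagggggTGACtcg
LOC101927151, chr19:27794061-27794090, plus strand: gctgcgGGACtacaatcttcgcatgaaatg
JTB, chr1:153977796-153977825, minus strand: agaatGAACaaacacgcgccagccagggag
GGAC, the most used core of the consensus, occurred on the RNA strand in 2 of 13 tiles of 50 bases from such peaks (15.4%), against 17.1% of 210696 tiles of the same length from all windows. On either strand it occurred in 5 of 13 peak tiles (38.5%), against 31.4% of window tiles. A window has 250 bases before the gene start and 50 bases after it, so most window tiles lie before the listed start. A match is a description of the letters and not a mapped m6A site. The LOC101927151 window is that of LINC00662, which runs on the other strand.

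In the authors' deposited tables the effects at these 5 gene-start peaks were high with both targets. On the natural log scale, in the order ALKBH5 shRNA-1, ALKBH5 shRNA-2, RBM33 shRNA-1, RBM33 shRNA-2, SRA1 had 3.86, 1.19, 1.50 and 1.87. FAM53C had 3.00 and 3.09 with the ALKBH5 shRNAs and 2.58 with RBM33 shRNA-2. LOC101927151 had 2.56 and 2.48 with the ALKBH5 shRNAs and 1.32 with RBM33 shRNA-2, and JTB had 1.85, 1.34 and 1.29 in the same 3 tables. All of these were higher with shRNA than with scramble, and a table that lacks a peak says only that it did not pass there. PGK1 is described below with the other loci found in every table.

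Most members lay wholly inside an ALKBH5 block. A total of 1553 members shared all their bases, 1668 shared at least 50% of them and 5 shared under 10 bases (median absolute effect 1.79 in the authors' deposited tables). Just outside the rule, 735 RBM33 rows began or ended in the base next to an ALKBH5 block without sharing one (median absolute effect 0.993), and 6 rows were 2 to 50 bases away. A further 1402 RBM33 rows had no ALKBH5 block within 1000 bases. By gene the sets met more often than by base. Of 2975 genes with an RBM33 row, 2620 also had an ALKBH5 row, and in 1596 of these no row shared a base. ALKBH5 rows are widespread, in 8809 genes, 8620 of which were among the 18227 genes tested for RNA. Genes with an RBM33 row had a median of 47.7 CPM in RBM33 scramble, against 16.0 CPM for all genes tested. Nothing is therefore read from the overlap by gene. The members lay in 1026 genes by the authors' gene names.

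The joined loci were short. Of 1362 loci, 1190 were 50 bases long (87.4%) and the longest was 350 bases. Exon joins split 288 of them into 2 or more blocks (21.1%). They were spread over the chromosomes, with 167 on chromosome 1, 125 on chromosome 19 and 61 on chromosome X. By definition a locus is in at least 1 table of each target: 828 loci were in 2 tables, 422 in 3 and 112 in all 4.

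The shared peaks mostly carried more m6A with the shRNA of either target. Of these loci, 1192 were higher with shRNA in every deposited table of the authors that lists them (87.5%), 96 were lower in every one (7.05%) and 74 differed in sign between tables (5.43%). Counted by row, 1561 members were higher and 134 lower with RBM33 shRNA, so 92.1% were higher, against 87.6% of all 5338 RBM33 rows and 85.5% of the 3643 RBM33 rows with no ALKBH5 overlap. In the ALKBH5 tables, whose rows are higher in 64.7% (shRNA-1) and 72.5% (shRNA-2), the overlapped rows were higher in 83.0% and 92.7%. The rule used these effects, so nothing is read from the differences.

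Direction was mostly the same in both targets, which have separate scramble groups. Of 1695 members, 1612 had the sign of every overlapping ALKBH5 row (95.1%), 79 had the opposite sign (4.66%) and 4 overlapped rows of both signs. Among members higher with RBM33 shRNA 96.0% matched, and among lower ones 84.3%, or 113 of 134. Opposite signs were found in 55 of 693 members with an ALKBH5 shRNA-1 row (7.94%) and in 32 of 1437 with an ALKBH5 shRNA-2 row (2.23%). Over the loci, the mean effects of both targets had a Spearman correlation of 0.52 (1362 loci), which was 0.41 over the loci higher in every table and 0.54 over the 112 loci in all 4. These loci were listed because both effects passed a threshold, and neighbouring loci can share 1 wide ALKBH5 row, so the correlation is a description. The mean absolute effect was larger for ALKBH5 than for RBM33 in 931 loci (68.4%).

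**Figure D1:**
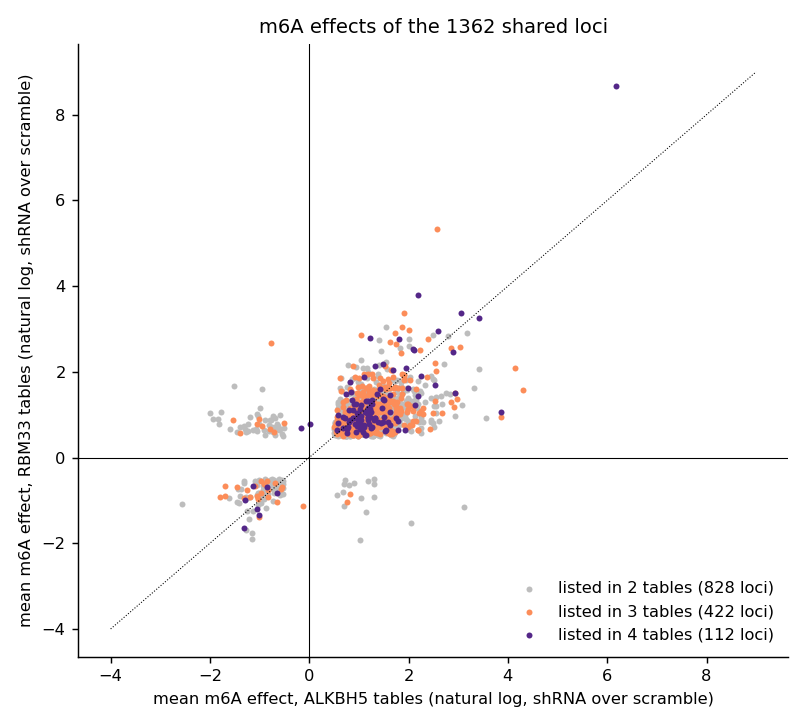
Mean m6A effect per shared locus on the natural log scale, from the authors' deposited tables, with the ALKBH5 shRNAs on the x axis and the RBM33 shRNAs on the y axis; colour gives the number of tables that list the locus. Of 1362 points, 1192 lie among loci higher in every listing table, and single effects under 0.5 in absolute value are outside the tables.

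The 112 loci in all 4 tables lay in 95 genes, and 103 of them were higher with every shRNA, 7 lower and 2 mixed. Their median absolute effects in the authors' deposited tables were 1.10 with ALKBH5 shRNA-1, 1.22 with ALKBH5 shRNA-2, 0.984 with RBM33 shRNA-1 and 0.999 with RBM33 shRNA-2. As folds of enrichment these medians are 3.02, 3.38, 2.68 and 2.72.

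The highest effects among the shared loci were at PGK1 (ENSG00000102144), a glycolytic kinase whose promoter is widely used in expression vectors. The authors' deposited tables give the peak at chrX:78104219-78104318 effects of 5.99 and 6.37 with the ALKBH5 shRNAs and 8.60 and 8.73 with the RBM33 shRNAs. The peak spans the RefSeq start of PGK1 at base 78104248, with 29 bases before it and 71 bases from it on, and its start-site letters are printed above. The next shared loci, named after their values were seen, were TNRC6A at 4.24 and 4.35 with the ALKBH5 shRNAs and PIGQ at 5.26 and 5.40 with the RBM33 shRNAs. PGK1 thus led the shared loci in all 4 tables, and rows that are not shared were not ranked. The deposited values do not tell reads of the endogenous gene from reads of identical sequence elsewhere, and which of them gave these values was not tested.

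Next in order stood MBD6, a methyl-CpG-binding domain protein, ABCA7, a lipid transporter, the long noncoding RNA CCDC183-AS1 and MAT2A, the enzyme that makes S-adenosylmethionine, the methyl donor of m6A. In the authors' deposited tables MBD6 (chr12:57526722-57526771) had effects of 3.18 and 3.66 with the ALKBH5 shRNAs and 3.06 and 3.43 with the RBM33 shRNAs. The ABCA7 locus (chr19:1048995-1050937, 200 bases in 3 blocks) had 2.58 and 3.53 with the ALKBH5 shRNAs and 3.37 and 3.38 with the RBM33 shRNAs. CCDC183-AS1 (chr9:136805413-136805462, minus strand) had 2.83 and 2.37 with the ALKBH5 shRNAs and 2.83 and 3.06 with the RBM33 shRNAs. At these 3 loci the effects of both targets overlapped in size. In the same deposited tables MAT2A (chr2:85542637-85542736) had effects of 2.64 and 3.13 with the ALKBH5 shRNAs and 2.13 and 2.81 with the RBM33 shRNAs. MAT2A transcripts are known to carry m6A hairpins that METTL16 methylates, and whether this peak is one of them was not tested.

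The other loci of the 10 with the largest smallest effect were in KMT2D, TAF1, SF3A2 and RPL27A. SF3A2, a subunit of the U2 snRNP, had effects of 1.62 and 1.98 with the ALKBH5 shRNAs and 2.79 and 2.75 with the RBM33 shRNAs at chr19:2247880-2248129, in the authors' deposited tables. TAF1, the largest subunit of TFIID, had 2.60 and 1.90 with the ALKBH5 shRNAs and 1.79 and 2.00 with the RBM33 shRNAs at chrX:71459697-71460663. RPL27A, a protein of the large ribosomal subunit, had 1.97 and 2.02 with the ALKBH5 shRNAs and 1.61 and 1.65 with the RBM33 shRNAs at chr11:8688844-8688893. At SF3A2 both RBM33 effects were above both ALKBH5 effects, and at RPL27A both were below. The neighbour of SF3A2, AMH, had a shared locus at chr19:2249364-2249413 with 2.97 for ALKBH5 shRNA-2 and 1.33 and 1.38 for the RBM33 shRNAs.

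**Figure D2:**
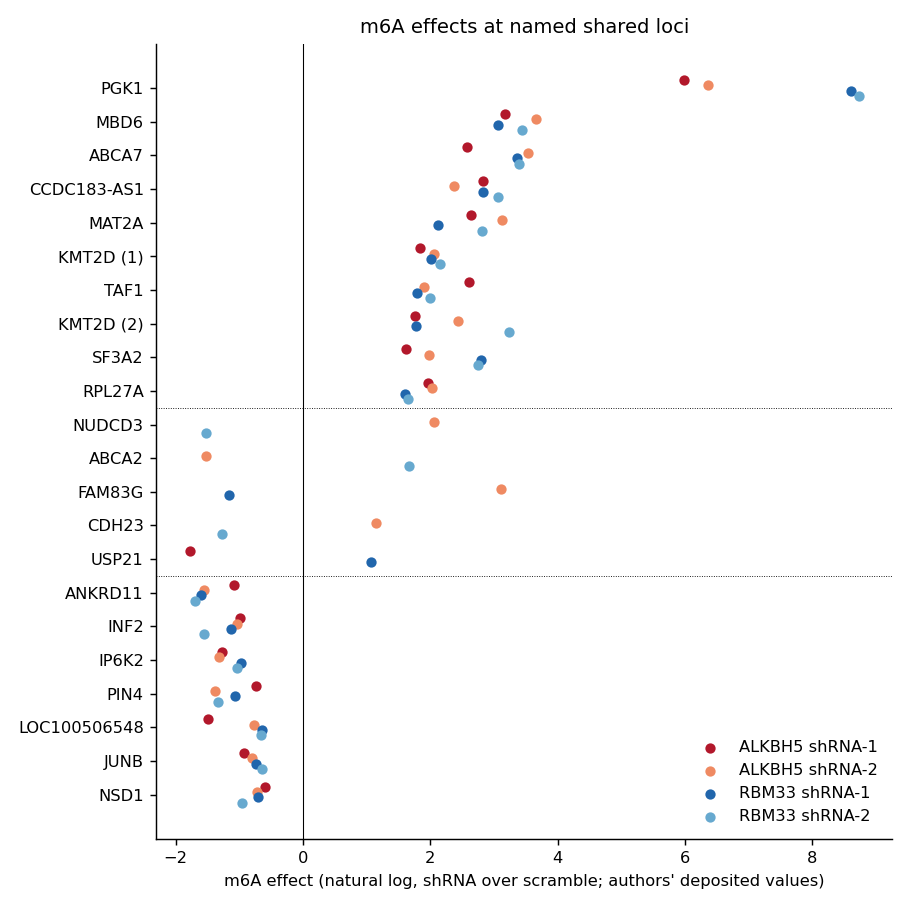
Natural log m6A effects from the authors' deposited tables for named shared loci, 1 row each, with a dot for each of the 4 shRNAs. The 10 strongest loci of all 4 tables lie right of 0, led by PGK1 at 5.99 to 8.73; 5 loci have opposite signs in the targets, and 7 lie left of 0 in every table.

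The 7 loci lower in all 4 tables were named after their values were seen. They lay in ANKRD11, INF2, IP6K2, PIN4, LOC100506548, JUNB and NSD1. These are directions of single loci: ANKRD11 and IP6K2 each had 2 other shared loci that were higher, and PIN4 had 1. The strongest was in ANKRD11, a chromatin-associated ankyrin repeat protein (chr16:89286860-89288623, minus strand), with effects of -1.09 and -1.55 for the ALKBH5 shRNAs and -1.60 and -1.69 for the RBM33 shRNAs in the authors' deposited tables. JUNB, an AP-1 transcription factor, had -0.923 and -0.794 for the ALKBH5 shRNAs and -0.733 and -0.643 for the RBM33 shRNAs at chr19:12791746-12791795. NSD1, a histone H3 lysine methyltransferase, had -0.591 and -0.718 for the ALKBH5 shRNAs and -0.699 and -0.964 for the RBM33 shRNAs at chr5:177135590-177135789. These effects were smaller than those of the strongest higher loci.

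The 5 loci of opposite sign with the largest smallest effect were each listed by 1 shRNA of each target. In the authors' deposited tables NUDCD3 (chr7:44384633-44384682) was at 2.05 with ALKBH5 shRNA-2 and -1.53 with RBM33 shRNA-2. FAM83G was at 3.11 with ALKBH5 shRNA-2 and -1.17 with RBM33 shRNA-1, and CDH23 at 1.15 with ALKBH5 shRNA-2 and -1.27 with RBM33 shRNA-2. ABCA2 and USP21 went the other way: ABCA2 was at -1.52 with ALKBH5 shRNA-2 and 1.67 with RBM33 shRNA-2, and USP21 at -1.78 with ALKBH5 shRNA-1 and 1.06 with RBM33 shRNA-1. No locus of this kind among the 5 has a repeat in the second shRNA of a target.

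A second kind of deposited table gives the methylated share of a peak as a fraction, with the authors' adjusted p. Of the 1362 loci, 46 had a row in any of these tables and 3 had one for both targets: PGK1 and 2 adjoining loci of ATF4, which share the same ALKBH5 row and the same rows of shares. In the authors' deposited tables the methylated share at PGK1 was 0.448 with ALKBH5 shRNA-1 against 0.120 with scramble, and 0.579 with ALKBH5 shRNA-2 against 0.0619. It was 0.724 with RBM33 shRNA-1 against 0.0198 with scramble, and 0.617 with RBM33 shRNA-2 against 0.0203. The PGK1 scramble share was thus higher in the ALKBH5 set than in the RBM33 set in each pair.

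ATF4 (ENSG00000128272) is the transcription factor of the integrated stress response, and m6A in its leader is known from mouse to bear on start-site choice. The authors' deposited tables give the ATF4 locus at chr22:39521659-39521909 effects of 1.27 and 1.50 with the ALKBH5 shRNAs and 0.826 and 0.821 with the RBM33 shRNAs. Its methylated share in the authors' deposited tables was 0.314 with ALKBH5 shRNA-1 against 0.164 with scramble (their adjusted p = 0.0136), and 0.436 with ALKBH5 shRNA-2 against 0.222 (adjusted p = 0.00834). It was 0.389 with RBM33 shRNA-1 against 0.214 (adjusted p = 0.0674), and 0.416 with RBM33 shRNA-2 against 0.222 (adjusted p = 0.0994). All 4 shares were higher with shRNA, and those of RBM33 missed an adjusted p of 0.05 in the authors' deposited tables.

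Shared loci gathered in some transcripts. Of 1026 genes, 814 had 1 locus and 212 had 2 or more, and in 183 of these 212 all loci went one way. All loci were higher in 861 genes and lower in 77 genes, and 15 genes had a locus of each direction. KMT2D (ENSG00000167548), a histone H3 lysine 4 methyltransferase, had the most, with 12 loci, all higher, 5 of them in all 4 tables. They spanned chr12:49039464-49053514 on the minus strand. Among them were 2 of the 10 loci with the largest smallest effect. Of these, chr12:49040470-49040569 had effects of 1.83 and 2.05 with the ALKBH5 shRNAs and 2.00 and 2.16 with the RBM33 shRNAs, and chr12:49040670-49040869 had 1.77 and 2.44 with the ALKBH5 shRNAs and 1.78 and 3.24 with the RBM33 shRNAs, in the authors' deposited tables.

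PRRC2B, an RNA-binding protein reported as an m6A reader, had 9 loci. ATN1 and SLC7A1 had 7, and KHSRP, a decay factor that binds AU-rich elements, had 6. COL27A1, NCLN, SRCAP and TP73-AS1 had 5 each, and every locus of these genes was higher in all tables that list it. Several loci can share a wide ALKBH5 row. AGAP3 had 4 loci, 2 higher and 2 lower. The CBS loci are uncertain, since CBS has near-identical copies on chromosome 21 between which reads can be split.

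Some transcripts of interest for ALKBH5 also carried shared loci. The RBM33 transcript itself had 1 at chr7:155644859-155644908, with 0.693 for ALKBH5 shRNA-2 and 0.653 for RBM33 shRNA-2 in the authors' deposited tables. DDIT4, an inhibitor of mTORC1 signalling, had a locus at chr10:72275388-72275437 with 1.20 for ALKBH5 shRNA-2 and 0.625 and 0.549 for the RBM33 shRNAs. A second DDIT4 locus at chr10:72275638-72275687 had 1.20 for ALKBH5 shRNA-2 and 0.850 for RBM33 shRNA-1. Both DDIT4 loci lie in the same ALKBH5 shRNA-2 row, so the 1.20 is the same value, and neither overlaps an ALKBH5 shRNA-1 row. HSPA8, the constitutive cytosolic HSP70, had 0.961 and 0.930 with the ALKBH5 shRNAs and 0.649 and 0.545 with the RBM33 shRNAs at chr11:123058731-123058780. HSPA5, the HSP70 of the endoplasmic reticulum, had 0.989 and 0.793 with the ALKBH5 shRNAs and 0.926 and 0.905 with the RBM33 shRNAs at chr9:125237018-125237117. TXNIP, an inhibitor of thioredoxin and glucose uptake, had 1.37 for ALKBH5 shRNA-2 and 1.18 for RBM33 shRNA-1 at chr1:145995230-145995279. All of these loci were higher with shRNA.

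Members of the gene lists were found in all 4 tables too, and each was higher unless it is named above as lower. In the authors' deposited tables KMT2B (chr19:35732121-35732249), a relative of KMT2D, had effects of 1.47 and 1.47 with the ALKBH5 shRNAs and 1.04 and 1.26 with the RBM33 shRNAs. SRSF3, a splicing factor that also binds the m6A reader YTHDC1, had 0.962 and 1.38 with the ALKBH5 shRNAs and 1.01 and 1.05 with the RBM33 shRNAs at chr6:36596892-36596941. SRSF4 had 1.83 and 1.75 with the ALKBH5 shRNAs and 0.645 and 0.638 with the RBM33 shRNAs at chr1:29154797-29154896. The gap between targets was thus wide at SRSF4 and narrow at SRSF3. HSP90AA1, the inducible cytosolic HSP90, had 1.42 and 1.82 with the ALKBH5 shRNAs and 0.817 and 0.681 with the RBM33 shRNAs at chr14:102085838-102085937. PPP1R15B, a phosphatase subunit that reverses eIF2alpha phosphorylation, had 0.759 and 1.23 with the ALKBH5 shRNAs and 0.773 and 0.722 with the RBM33 shRNAs at chr1:204411168-204411267. Those of ATF3, FANCA, HNRNPUL1, KDM5C and AMBRA1 lay between 0.575 and 1.79 in every table.

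Shared rows and RBM33 rows with no ALKBH5 overlap differed in size and in the level of their genes. In the authors' deposited tables the median effect of higher rows was 0.925 for shared rows (2.52-fold) and 1.15 for the others (3.15-fold). The median for lower rows was -0.834 for shared rows and -0.916 for the others. Rows of exactly 50 bases made up 87.9% of shared rows and 97.0% of the others. Host genes of shared rows had a median RNA level of 67.6 CPM in RBM33 scramble libraries, against 44.8 CPM for genes of the other RBM33 rows and 16.0 CPM for all genes tested. Per gene, longer and higher RNAs give more reads, so these levels are not per length.

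Position along the gene differed little between these sets. The median shared row lay 76.7% of the way from gene start to gene end, and the median of the other RBM33 rows 76.8%. Within 500 bases of the gene start lay 4.88% of shared rows and 7.37% of the others, and within 500 bases of the gene end 8.93% and 8.73%. Gene start and gene end are here the outer ends of the gene span listed with the RNA values. They can lie far from a RefSeq start: the PGK1 peak, which spans one, was 193480 bases from this gene start. Exons and untranslated regions were not used here, so the part of the transcript is not given.

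RNA levels of the genes with a shared peak were tested, since the rule did not use them, although the m6A effects were estimated with the same input libraries. Of 1026 genes, 1015 matched the RNA table and 1013 had a mean of at least 1 CPM. With ALKBH5 shRNA 288 of 1013 changed (28.4%; 143 rose, 145 fell), against 15.1% of all 18227 genes tested (7.93% rose, 7.18% fell). With RBM33 shRNA 329 changed (32.5%; 159 rose, 170 fell), against 17.7% of all genes (8.5% rose, 9.25% fell). The ALKBH5 split moved to 147 risen and 134 fallen of 281 when each library was centred on its median. The RBM33 split moved to 197 risen and 131 fallen of 328 under the same centring, and to 138 and 183 when a trend with gene length was removed. Leaving out a library gave 209 to 294 of these genes for ALKBH5 and 251 to 335 for RBM33; over all genes the count of 2754 for ALKBH5 was 1710 without ALKBH5 scramble replicate 1, and that of 3235 for RBM33 was 2083 and 2062 without RBM33 scramble replicates 1 and 2. The median log2 change of the genes with a shared peak was -0.01 with ALKBH5 shRNA and -0.01 with RBM33 shRNA, against 0.01 and -0.01 over all genes.

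RNA level moved with these counts. With level averaged over the 6 groups, the share of genes with a shared peak was 0.567% below 10 CPM (42 of 7412), 5.17% from 10 to 50 CPM (342 of 6615), 13.8% from 50 to 200 CPM (471 of 3416) and 20.2% from 200 CPM (158 of 784). Within a level from 10 CPM on, the shares of changed genes lay closer together, and below 10 CPM 11.9% of the 42 genes with a shared peak and 4.41% of other genes changed with ALKBH5 shRNA, and 23.8% and 6.88% with RBM33 shRNA. With ALKBH5 shRNA they were 15.2% of genes with a shared peak and 15.6% of other genes from 10 to 50 CPM, 34.4% and 30.8% from 50 to 200 CPM, and 43.7% and 41.1% from 200 CPM. With RBM33 shRNA they were 24.3% and 18.7% from 10 to 50 CPM, 33.5% and 32.9% from 50 to 200 CPM, and 49.4% and 40.7% from 200 CPM. Genes with RBM33 rows but no shared peak, at a median of 38.3 CPM, changed in 22.5% with ALKBH5 shRNA and 27.2% with RBM33 shRNA.

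**Figure D3:**
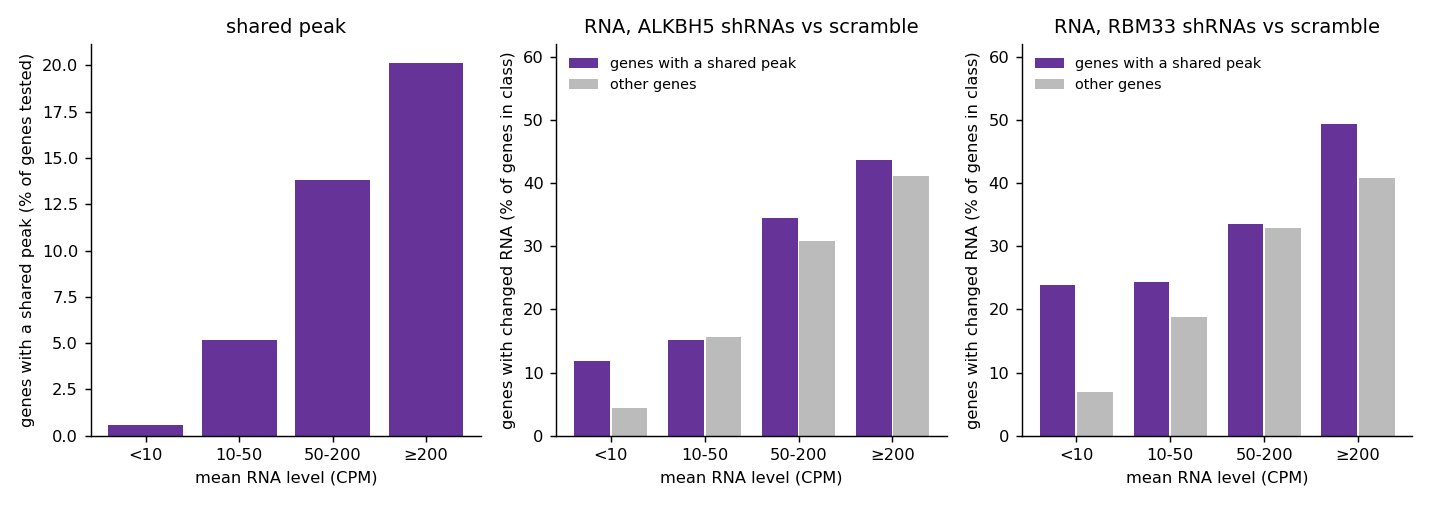
Left, percent of tested genes that have a shared peak, by RNA level averaged over the 6 groups (CPM); middle and right, percent of genes called changed with ALKBH5 shRNA and with RBM33 shRNA (limma adjusted p under 0.05), for genes with a shared peak beside other genes. The share with a shared peak goes from 0.567% in the lowest bin to 20.2% in the highest, and from 50 to 200 CPM the bars stand at 34.4% and 30.8% for ALKBH5 and 33.5% and 32.9% for RBM33.

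Changes in both targets were common among these genes. Of 1013, 166 changed with both (16.4%, against 6.51% of all genes): 87 rose with both, 74 fell with both and 5 went opposite ways. They are 57.6% of the genes called with ALKBH5 shRNA and 50.5% of those called with RBM33 shRNA. The Spearman correlation of the 2 log2 changes was 0.60 over the 1013 genes and 0.45 over all genes, as a description across genes that share libraries. The comparisons with all genes in this paragraph were not matched for RNA level, with which calls rose above. The difference between both changes passed the test in 43 of 1013 genes (4.24%; 26 higher with ALKBH5, 17 higher with RBM33), against 2.69% of all genes (2.01% and 0.686%). That count was 99 with DESeq2 and 23 without the length trend, and its split was 19 and 23 of 42 after centring. Leaving out a library gave 21 to 57: it was 21 without RBM33 scramble replicate 1 or 2, 24 without ALKBH5 scramble replicate 1, 27 without ALKBH5 shRNA-2 replicate 1, and 28 without ALKBH5 scramble replicate 3 or RBM33 shRNA-1 replicate 1.

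**Figure D4:**
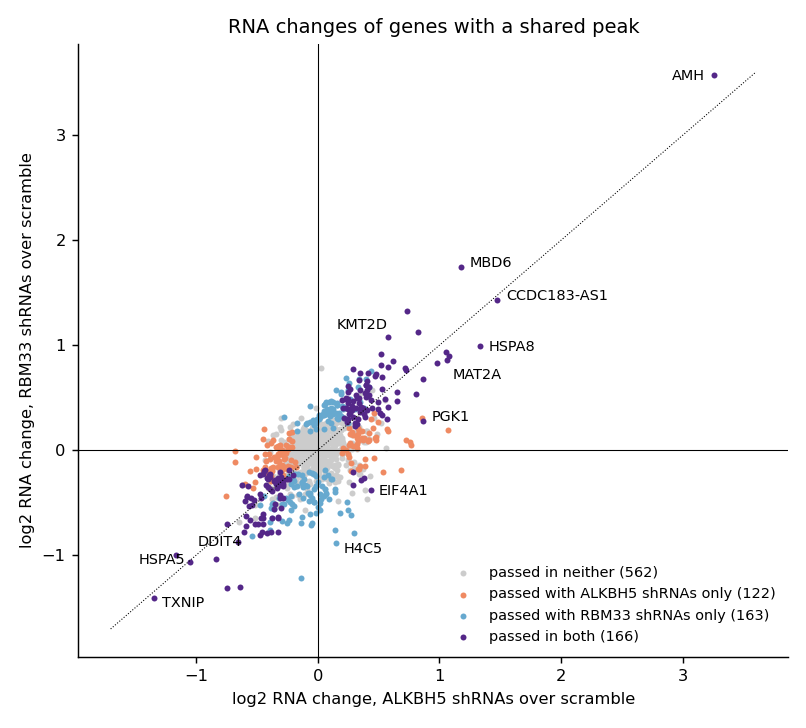
Log2 RNA change of the 1013 tested genes with a shared peak, with ALKBH5 shRNA against scramble on the x axis and RBM33 shRNA against scramble on the y axis; colour gives where limma called a change. In both targets 166 genes passed, 122 in ALKBH5 only, 163 in RBM33 only and 562 in neither.

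RNA went both ways in genes of either m6A direction. Of 852 genes whose shared peaks were all higher, 120 rose (14.1%) and 129 fell (15.1%) with ALKBH5 shRNA, and 131 rose (15.4%) and 143 fell (16.8%) with RBM33 shRNA. Of 74 genes whose shared peaks were all lower, 12 rose (16.2%) and 5 fell (6.76%) with ALKBH5 shRNA, and 16 rose (21.6%) and 5 fell (6.76%) with RBM33 shRNA. Of all genes tested 7.93% rose and 7.18% fell with ALKBH5 shRNA, and 8.5% rose and 9.25% fell with RBM33 shRNA. Over 1013 genes the Spearman correlation of m6A effect and RNA change was 0.02 for ALKBH5 and -0.05 for RBM33.

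The largest rises in both targets among these genes were AMH, CCDC183-AS1, MBD6, HSPA8 and JUNB. AMH (ENSG00000104899), the anti-Müllerian hormone, was at 65.8, 55.8, 51.8 and 57.4 CPM in ALKBH5 shRNA libraries, against 5.14, 4.30 and 6.03 CPM in scramble. It was at 65.0, 56.2, 52.5, 55.5 and 63.3 CPM in libraries labelled RBM33 shRNA, against 4.85, 2.75 and 4.77 CPM in scramble. Every shRNA library was far above every scramble library. On the log2(CPM + 1) scale AMH rose by 3.26 with ALKBH5 shRNA (SE 0.15, limma adjusted p = 3.34e-13) and by 3.57 with RBM33 shRNA (SE 0.15, limma adjusted p = 2.58e-14). AMH adjoins SF3A2 on the same strand, and reads that run past the end of SF3A2 could not be told from AMH reads.

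MBD6 was at 31.0, 32.8, 33.1 and 41.2 CPM in ALKBH5 shRNA libraries, against 14.6, 15.4 and 13.9 CPM in scramble. It was at 46.3, 39.7, 37.4, 44.6 and 33.0 CPM in libraries labelled RBM33 shRNA, against 14.2, 8.25 and 12.4 CPM in scramble. Neither pair of groups overlapped, and MBD6 rose by 1.18 and 1.74 on the log2 scale (SE 0.15 each, limma adjusted p = 1.12e-05 and 1.06e-08). CCDC183-AS1 was at 11.8, 11.1, 11.3 and 16.0 CPM in ALKBH5 shRNA libraries, against 2.91, 3.69 and 5.09 CPM in scramble. It was at 13.5, 12.0, 10.1, 13.2 and 9.38 CPM in libraries labelled RBM33 shRNA, against 5.01, 3.56 and 2.90 CPM in scramble. Its groups did not overlap either. CCDC183-AS1 rose by 1.48 with ALKBH5 shRNA and 1.43 with RBM33 shRNA (limma adjusted p = 6.35e-05 and 3.87e-05).

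HSPA8 was at 459, 465, 506 and 404 CPM in ALKBH5 shRNA libraries, against 209.5, 169 and 166 CPM in scramble. It was at 428, 476, 425, 463 and 442 CPM in libraries labelled RBM33 shRNA, against 217, 236 and 219 CPM in scramble. Each shRNA library was above each scramble library. HSPA8 rose by 1.33 with ALKBH5 shRNA (SE 0.08, limma adjusted p = 1.02e-10) and by 0.99 with RBM33 shRNA (SE 0.08, limma adjusted p = 6.49e-09). JUNB, whose shared peak was lower in all tables, was at 17.5, 18.6, 17.8 and 15.2 CPM in ALKBH5 shRNA libraries, against 7.71, 8.14 and 7.54 CPM in scramble. It was at 13.2, 19.3, 18.2, 16.2 and 14.5 CPM in libraries labelled RBM33 shRNA, against 7.27, 9.38 and 7.33 CPM in scramble. JUNB rose by 1.05 and 0.94 (limma adjusted p = 1.66e-04 and 2.58e-04).

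The largest falls in both targets were TXNIP, HSPA5, PPDPF, DDIT4 and BTBD2, and TXNIP, HSPA5 and DDIT4 are described above by their m6A. TXNIP was at 108, 110.1, 93.6 and 107 CPM in ALKBH5 shRNA libraries, against 278, 248 and 274 CPM in scramble. It was at 104, 125, 107, 92.3 and 122 CPM in libraries labelled RBM33 shRNA, against 297, 299 and 288 CPM in scramble. Each shRNA library was below each scramble library. TXNIP fell by 1.34 with ALKBH5 shRNA (SE 0.09, limma adjusted p = 1.72e-10) and by 1.41 with RBM33 shRNA (SE 0.08, limma adjusted p = 2.20e-11).

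HSPA5 was at 450.4, 440.4, 418 and 435 CPM in ALKBH5 shRNA libraries, against 896, 956 and 861 CPM in scramble. It was at 446, 468, 485, 419.8 and 425 CPM in libraries labelled RBM33 shRNA, against 936, 886 and 1004 CPM in scramble. HSPA5 fell by 1.05 and 1.06 on the log2 scale (SE 0.07 each, limma adjusted p = 1.72e-10 and 3.84e-11). Its cytosolic relative HSPA8 thus went the other way, while the shared peaks of both were higher. DDIT4 fell by 0.84 and 1.04 (limma adjusted p = 1.38e-08 and 7.78e-11), PPDPF by 1.16 and 1.00 (limma adjusted p = 7.03e-07 and 2.44e-06) and BTBD2 by 0.74 and 1.31 (limma adjusted p = 1.37e-04 and 1.55e-08), for ALKBH5 shRNA and RBM33 shRNA in that order.

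**Figure D5:**
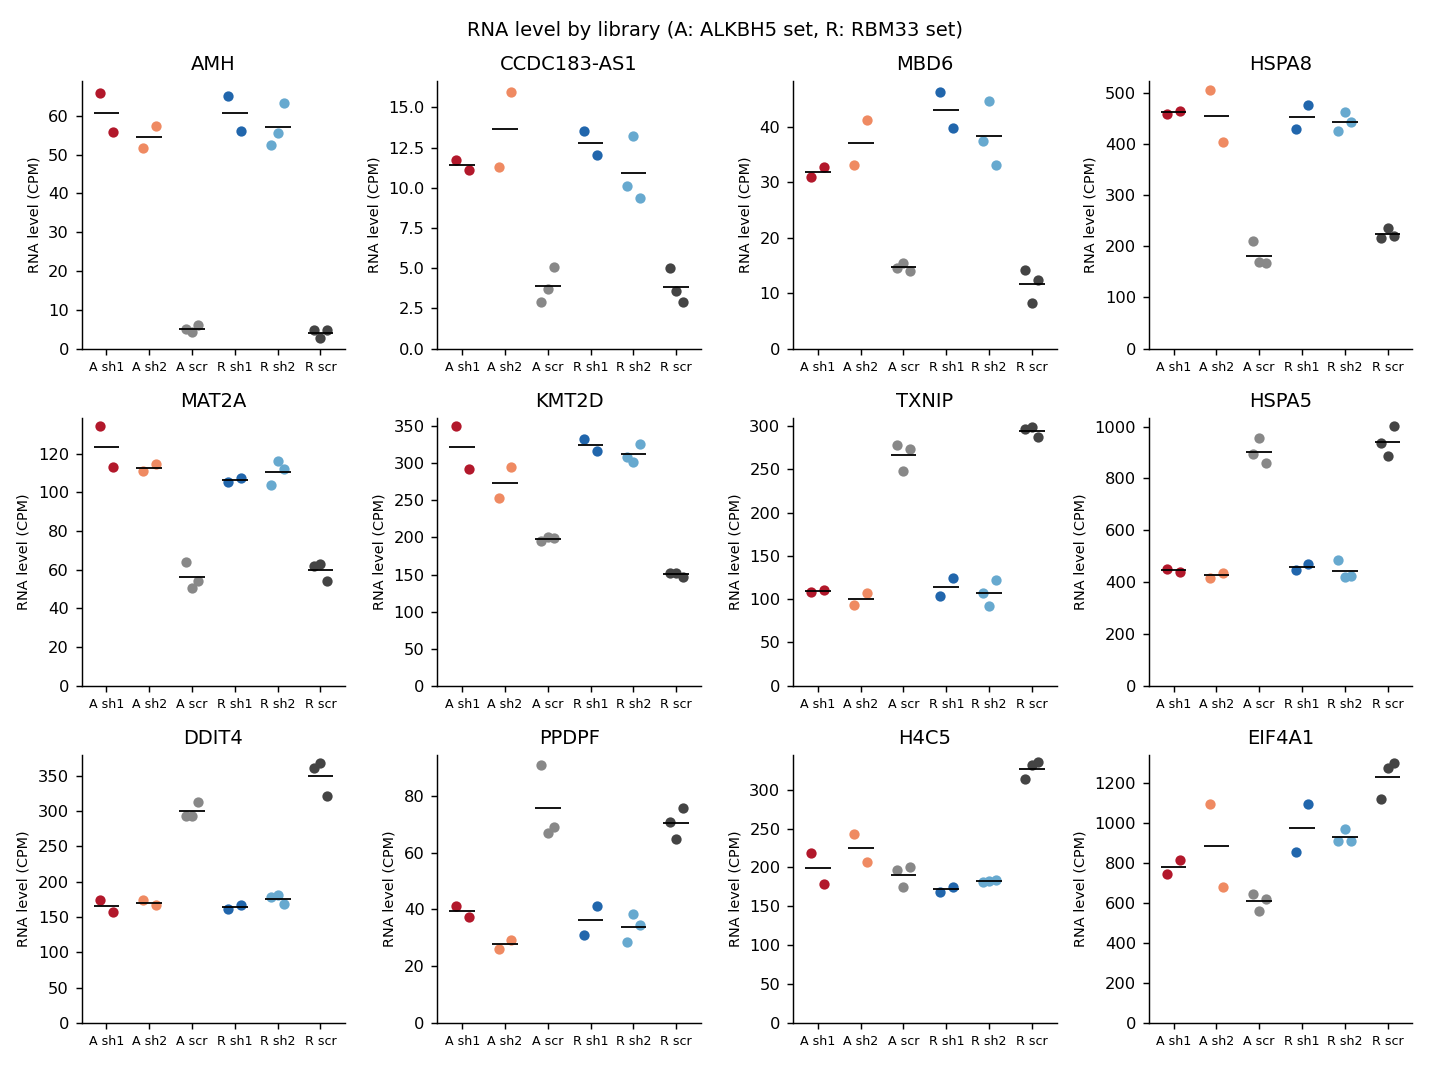
RNA level (CPM) of 12 genes with a shared peak in each of the 15 libraries, with a bar at each group mean; A is the ALKBH5 set and R the RBM33 set, with shRNA-1 and shRNA-2 left of scramble. AMH, MBD6, HSPA8 and KMT2D lie above scramble in every shRNA library, and TXNIP, HSPA5 and DDIT4 below it.

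KMT2D, which held the most shared loci, was at 351, 293, 253 and 295 CPM in ALKBH5 shRNA libraries, against 195, 201 and 199 CPM in scramble. It was at 332, 316, 309, 302 and 326 CPM in libraries labelled RBM33 shRNA, against 152, 152 and 147 CPM in scramble. KMT2D rose by 0.58 with ALKBH5 shRNA and 1.08 with RBM33 shRNA (SE 0.07 each, limma adjusted p = 6.99e-06 and 7.78e-11). The difference of -0.50 passed the test (limma adjusted p = 0.00578), but not once the trend with gene length was removed (-0.32, adjusted p = 0.103). The KMT2D levels of the shRNA libraries overlapped between the sets, while the scramble groups lay apart. What the scrambles add to this difference was not tested. MAT2A rose by 1.06 and 0.86 (limma adjusted p = 2.19e-08 and 2.34e-07), with 111 to 134 CPM in ALKBH5 shRNA libraries against 50.7 to 64.1 CPM in scramble, and 104 to 116 CPM in libraries labelled RBM33 shRNA against 54.2 to 62.7 CPM in scramble.

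PGK1 RNA was at 449.8, 419, 475 and 446 CPM in ALKBH5 shRNA libraries, against 248, 248 and 240.3 CPM in scramble. It was at 370.0, 352, 366, 361 and 354 CPM in libraries labelled RBM33 shRNA, against 285, 293 and 317 CPM in scramble. Both groups lay above their scramble, by 0.86 and 0.28 on the log2 scale (limma adjusted p = 1.74e-09 and 0.00239), and the difference of 0.59 passed the test (limma adjusted p = 3.58e-04). The order was thus the reverse of the m6A effects, which were larger with the RBM33 shRNAs, and the limit on the source of PGK1 reads holds here too.

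Of the gene lists, that of SR and hnRNP splicing factors had the highest share of members with a shared peak. Of its 32 measured genes, 16 had one (50%). Of their 21 loci 20 were higher, beside 87.5% of all 1362 loci. The share with a shared peak was 5.56% of all genes tested and 9.01% of the 10805 genes at 10 CPM or more in RBM33 scramble. It was 13.8% of genes from 50 to 200 CPM and 20.2% from 200 CPM, and lists were not matched for level. Of the 16, 5 rose with ALKBH5 shRNA and 10 with RBM33 shRNA, and none fell. Of all genes tested 7.93% and 8.5% rose, and of the 1013 genes with a shared peak 14.1% and 15.7%. With the length trend removed 9 of the 16 rose and 1 fell with RBM33 shRNA. HNRNPM, a regulator of alternative exons, rose by 0.48 with ALKBH5 shRNA and 0.73 with RBM33 shRNA. SON, a nuclear speckle protein, rose by 0.23 and 0.48, HNRNPH1 by 0.25 and 0.44, and SRSF1 by 0.36 and 0.38. The ALKBH5 call of SON was lost without ALKBH5 scramble replicate 3 (limma adjusted p = 0.0564). The median log2 change of the 16 was 0.13 and 0.31, against 0.01 and -0.01 over all genes.

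Of 36 histone methyltransferases and demethylases, 10 had a shared peak (27.8%, against the 5.56%, 9.01%, 13.8% and 20.2% above). They held 26 loci, of which 23 were higher and 3 lower, where 87.5% of all 1362 loci were higher. In RNA 5 of the 10 rose with ALKBH5 shRNA and 8 with RBM33 shRNA, and none fell, where 7.93% and 8.5% of all genes, and 14.1% and 15.7% of the 1013 with a shared peak, rose; 6 rose with RBM33 shRNA without the length trend and 9 after centring. Beside KMT2D, KMT2B rose by 0.35 with ALKBH5 shRNA and 0.73 with RBM33 shRNA, KMT2C by 0.25 and 0.61, and SETD1B, whose locus was lower, by 0.41 and 0.66. Of 33 remodellers and coactivators, 9 had a shared peak (27.3%), and 15 of their 16 loci were higher. With ALKBH5 shRNA 2 of the 9 rose and 1 fell, and with RBM33 shRNA 5 rose and 1 fell: the ATPase SRCAP rose by 0.40 and 0.62, the acetyltransferase EP300 by 0.23 and 0.49, and SMARCC2, a BAF subunit, fell by 0.33 and 0.27. The RBM33 call of SMARCC2 was lost after centring and with a replicate block (limma adjusted p = 0.070 and 0.0529), and the ALKBH5 call of EP300 when each set was fitted alone (0.0516). Without ALKBH5 scramble replicate 3 the ALKBH5 calls of KMT2B, KMT2C, EP300 and SMARCC2 were lost. That of SETD1B was lost without ALKBH5 scramble replicate 2, those of KMT2B, KMT2C and EP300 without ALKBH5 shRNA-1 replicate 1, that of KMT2B without ALKBH5 shRNA-2 replicate 3, that of SMARCC2 without ALKBH5 shRNA-1 replicate 2, and those of EP300 and SMARCC2 without ALKBH5 shRNA-2 replicate 1. The RBM33 call of SMARCC2 was lost without RBM33 scramble replicate 1 or 2, RBM33 shRNA-1 replicate 2 or RBM33 shRNA-2 replicate 3.

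Stress genes moved in both directions. Of 28 heat shock chaperones, 5 had a shared peak (17.9%, against 5.56% of all genes and 9.01% of those at 10 CPM or more). Of genes from 200 CPM on, 20.2% had one. HSPA8, HSP90AA1 and BAG3 rose with both targets, and HSPA5 and HSP90B1, the chaperones of the endoplasmic reticulum, fell with both. Of the 1013 genes with a shared peak 14.1% rose and 14.3% fell with ALKBH5 shRNA, and 15.7% rose and 16.8% fell with RBM33 shRNA. HSP90AA1 rose by 0.62 with ALKBH5 shRNA and 0.85 with RBM33 shRNA, BAG3, whose locus was lower, by 0.41 and 0.57, and HSP90B1 fell by 0.47 and 0.24. The ALKBH5 call of BAG3 was lost without ALKBH5 scramble replicate 3, ALKBH5 shRNA-1 replicate 2 or ALKBH5 shRNA-2 replicate 3, and the RBM33 call of HSP90B1 without RBM33 scramble replicate 3 or RBM33 shRNA-1 replicate 1. Of 27 ATF4 and unfolded protein response genes, 9 had a shared peak (33.3%). Of their 13 loci 12 were higher, beside 87.5% of all 1362 loci. With ALKBH5 shRNA ATF4 rose by 0.21 (limma adjusted p = 0.0259, and 0.116 without the length trend) and SLC3A2 by 0.36, and with RBM33 shRNA PHGDH, the first enzyme of serine synthesis, fell by 0.57. The ATF4 call was also lost without any 1 of 4 libraries: ALKBH5 scramble replicate 1 or 3, ALKBH5 shRNA-1 replicate 1 or ALKBH5 shRNA-2 replicate 3. ATF4 was at 505 to 568 CPM in libraries labelled RBM33 shRNA, against 528 to 544 CPM in scramble, so these groups overlapped.

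Of 41 mTORC1 and nutrient-sensing genes, 7 had a shared peak (17.1%). All 8 of their loci were higher, beside 87.5% of all 1362 loci. The share with a shared peak was 5.56% over all genes and 9.01% at 10 CPM or more. With ALKBH5 shRNA 1 of the 7 rose and 2 fell, and with RBM33 shRNA 1 rose and 3 fell. Of the 1013 genes with a shared peak 28.4% changed with ALKBH5 shRNA and 32.5% with RBM33 shRNA. TSC1, a brake on mTORC1, rose by 0.29 with ALKBH5 shRNA and 0.47 with RBM33 shRNA, beside the falls of DDIT4; its ALKBH5 call was lost without any 1 of 6 of the 7 libraries of that set, all but ALKBH5 shRNA-1 replicate 1. SESN3 fell by 0.51 with ALKBH5 shRNA and was at -0.06 with RBM33 shRNA. With RBM33 shRNA STK11 was at -0.24 and SEC13 at -0.21: both passed the threshold but not after centring (limma adjusted p = 0.0856 and 0.116), and STK11 also missed it without any 1 of 6 libraries. SEC13 missed it under 18 of 26 alternatives, 11 of which leave out a library. Of 31 NOTCH and WNT genes, 8 had a shared peak (25.8%), and all 11 of their loci were higher, beside the 87.5% of all loci. LRP5, a WNT coreceptor, was at -0.30 with ALKBH5 shRNA and -0.27 with RBM33 shRNA. Both LRP5 values passed the threshold but not with a replicate block (limma adjusted p = 0.0529 and 0.0713), the RBM33 value not after centring (0.0866), and leaving out 1 library lost the ALKBH5 call in 4 cases and the RBM33 call in 7. Of 22 immediate early genes 4 had a shared peak (18.2%), and JUNB was the 1 that rose.

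Beside the 5.56% of all genes and 9.01% of genes at 10 CPM or more, the remaining lists had a shared peak in 0% to 12.2% of their members, apart from the list of the 3 erasers and RBM33. Among m6A genes, 0 of 13 writers, 2 of 19 readers (10.5%, PRRC2B and YTHDF3) and RBM33 alone of the 3 erasers and RBM33 had a shared peak, and PRRC2B rose by 0.28 with ALKBH5 shRNA and 0.42 with RBM33 shRNA. Of 41 autophagy genes 5 had one (12.2%). Of these GABARAPL2 was at -0.27 with RBM33 shRNA, past the threshold but not after centring, without the length trend or with a replicate block (limma adjusted p = 0.0790, 0.0703 and 0.0526), and not without any 1 of 6 libraries. Of 446 C2H2 zinc finger genes 25 had one (5.61%), of which 4 fell with ALKBH5 shRNA, and 2 rose and 2 fell with RBM33 shRNA. Of the 1013 genes with a shared peak 14.3% fell with ALKBH5 shRNA, and 15.7% rose and 16.8% fell with RBM33 shRNA. The p53 list had 1 of 24 (4.17%; MDM4, which fell by 0.40 with ALKBH5 shRNA), the DNA damage list 1 of 22 (4.55%; FANCA, which rose by 0.41 and 0.52), the YAP and TAZ list 1 of 23 (4.35%), the SUMO list 2 of 18 (11.1%) and the EGFR, MAPK and PI3K list 3 of 28 (10.7%). Of 12 squamous lineage genes none had a shared peak.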

How the data were processed

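RNA-seq inputs and m6A-seq of UM-SCC-1 cells were processed by the authors. Per the submitters' processing notes, the tools were cutadapt 1.18, HISAT2 2.1.0, featureCounts (Subread 1.6.4), edgeR 3.24.3 and DESeq2, with build hg38; the tool that called peaks is not given in sources used here. The deposited RNA values are a signal in CPM of a normalized library size. Whole reads could be recovered from 100% of the values, 3 reads being 0.43 to 0.659 CPM, a floor that covers counting error only. The authors deposited an effect per peak on the natural log scale with an unadjusted p-value, and lists begin at an absolute effect of 0.5; the base was read from the values, since 4.67% to 7.41% of exponentials are multiples of 0.5 and 0% of powers of 2. Their methylated shares are a fraction, deposited with a log2 ratio and an adjusted p-value. No m6A value per library was used. Coordinates are counted from 1.

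Overlaps, loci and signs were computed with pandas 2.3.3. RNA was tested with limma 3.58.1 (R 4.3.3) (trended variance) on log2(CPM + 1) values of the 18227 genes averaging 1 CPM or more, in 1 fit of 6 groups with 9 residual degrees of freedom, Benjamini-Hochberg adjusted over all genes, threshold 0.05. Fold changes on this scale understate low genes. Contrasts were the mean of both shRNAs minus the scramble of the same set, and the ALKBH5 change minus the RBM33 change. Although design choices named a count test for whole counts, the values are normalized, so limma was kept; edgeR 4.0.16 and DESeq2 1.42.0 on recovered reads were alternatives. Replicate pairs differed by more than sampling noise (chi-square per degree of freedom 2.9 to 8.04), so none were merged. Columns from other samples numbered 0. Peak genes were matched to the RNA table by symbol, 48 by an older symbol in a RefSeq gene table. Members and gene lists were chosen with earlier results of these data known. Loci were named by their smallest absolute effect over the 4 tables, genes by the smaller of both RNA changes or by the difference, and list members by list. The fit and the overlaps were tested on simulated data. The loci of some genes are not reported here.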

Additional observations from a re-analysis of the deposited data

Results flagged for a closer look

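A total of 10 named genes were picked out because the ALKBH5 change minus the RBM33 change itself passed limma's test (adjusted over all genes tested). Of these, 9 have a shared peak, and ALKBH5 is named as the target. The difference on the log2 scale was 1.03 for H4C5 (SE 0.11, adjusted p = 6.11e-06), a histone H4 gene that was at 179 to 244 CPM in ALKBH5 shRNA libraries against 175 to 200.4 CPM in scramble, and at 169 to 184 CPM in the libraries labelled RBM33 shRNA against 313 to 336 CPM in scramble. The shRNA groups thus lay close together and the scramble groups apart. The same held for EIF4A1, an RNA helicase of translation initiation, with a difference of 0.81 (adjusted p = 0.00396): scramble averaged 607 CPM in the ALKBH5 set and 1231 CPM in the RBM33 set. The part of the scrambles in these differences was not tested. METTL26 (C16orf13 in the peak tables) differed by 0.90, B4GAT1 by 0.87, UROD by 0.78, NME1-NME2 by 0.64, PGK1 by 0.59, KMT2D by -0.50 and ANKRD11 by -0.36. The differences of H4C5, EIF4A1, UROD, NME1-NME2 and PGK1 passed under each alternative run. Without the length trend B4GAT1, KMT2D and ANKRD11 missed the threshold (adjusted p = 0.0854, 0.103 and 0.399), METTL26 did without RBM33 scramble replicate 3 (0.0555), and ALKBH5 did without any 1 of 6 libraries (0.0544 to 0.0795). B4GAT1 also missed it with the replicate block (0.0564) and without any 1 of 9 libraries (0.0531 to 0.115), and ANKRD11 without any 1 of 8 (0.0502 to 0.119). NME1-NME2 is a readthrough gene that overlaps NME1 and NME2, so its reads are uncertain. ALKBH5 differed by -0.47, falling with its own shRNAs by 0.53 against -0.06 in the libraries labelled RBM33 shRNA.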

How the results depend on the processing

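No overlap value turned direction under the alternatives that were run. Nor did a called log2 change of a named gene or of a list member with a shared peak. Which direction held more of the genes with a shared peak did turn. For ALKBH5, 143 risen and 145 fallen became 147 and 134 after centring, 133 and 125 with each set fitted alone, and 141 and 127 with a replicate block. For RBM33 the split became 197 risen and 131 fallen after centring, 171 and 162 with DESeq2, and 158 and 146 with a replicate block. The difference turned to 19 higher and 23 lower after centring and to 46 and 53 with DESeq2. Some fits without 1 library turned it too, as without ALKBH5 scramble replicate 2 (122 and 92, ALKBH5) or RBM33 scramble replicate 1 (138 and 114, RBM33). The number of shared rows, the percent with the same sign as ALKBH5 and the number of genes were 564, 98.6% and 377 with an absolute effect of at least 1, 693, 92.1% and 468 with the ALKBH5 shRNA-1 table alone, and 435, 98.2% and 273 where both ALKBH5 tables were required. With the ALKBH5 shRNA-2 table alone the same-sign share was 97.8% of 1437 rows. Of the alternatives chosen after seeing the data, a p at most 20% of each table's largest gave 461, 98.7% and 299, and counting an adjoining base gave 2430, 91.6% and 1414. The counts change because fewer or more rows enter. The planned adjusted p of 0.01 was not run, since the effect tables hold no adjusted p.

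In RNA, the count of genes whose changes differ between targets was 315 without the length trend, against 491, and among genes with a shared peak 23 without it and 99 with DESeq2, against 43; the cause was not tested. Over all genes DESeq2 called 721, and edgeR's quasi-likelihood test on recovered reads called 2808 genes for ALKBH5, 3245 for RBM33 and 502 for the difference. Leaving out each library gave 1710 to 2858 genes for ALKBH5, 2062 to 3262 for RBM33 and 266 to 579 for the difference, and, with a shared peak, 209 to 294, 251 to 335 and 21 to 57. Where this left a group with 1 library, it was assumed to vary like the others. Same-numbered libraries did not deviate together (correlations -0.0761 to 0.0735), so the numbers do not pair them; the fit with a replicate block called 2473, 3046 and 397 genes, and 268, 304 and 31 with a shared peak. TMM changed no count and moved the median gene by 1.2e-08 (ALKBH5) and 9.7e-09 (RBM33) on the log2 scale, so it was not a separate check. Of 125 called changes of genes named by rank, locus or as targets, or in a list with a shared peak, 43 lost their call under at least 1 alternative. Of 3265 recomputed values, with those of RBM33 in its own contrast, 3035 kept direction and call. These include TMM and, for the change of 1 target, fits without a library of the other set. Such fits leave that log2 change as it was and alter only the spread, so direction could not turn there.

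Limits: m6A effects have no replicate spread here, lists begin at a set effect, and depth was 4493849 reads or more per RNA library, so genes near the floor of 3 reads were not resolved.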
